A study of Homo sapiens with 3 samples.

Results

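MDA-MB-231 LM2, cells selected for growth in the lung from MDA-MB-231, a human breast cancer line that lacks hormone receptors and HER2, were profiled by chromatin immunoprecipitation and sequencing (ChIP-seq) with an antibody to histones H3.1 and H3.2 (4 µg), an antibody to H3.3 (6 µg), each on 30 µg of chromatin, and as input DNA. There was 1 library of each kind, and the input was not analysed here. No treatment, time or genotype is named in the labels, and the column headers for both ChIPs include shGFP, a name for a hairpin RNA targeting GFP, which the labels leave out. The genes described here were 10 members of the BCL2 family and of the apoptosis pathway, chosen by symbol. Every region whose gene list held a member was taken, which gave 47 of the 67969 regions deposited (hg38), 24 at survival genes (BCL2, BCL2L1, MCL1, BIRC5 and XIAP) and 23 at death genes (BCL2L11, BAX, BAK1, BBC3 and PMAIP1). Each member had at least 1 region. The readout is histone occupancy, so neither the cell type nor the expression of a member could be checked in it.

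Apoptosis through mitochondria is decided by the balance of BCL2 family proteins. The guardians BCL2, BCL-xL (encoded by BCL2L1) and MCL1 bind and hold back the pore formers BAX and BAK (BAK1), and the BH3-only proteins BIM (BCL2L11), PUMA (BBC3) and NOXA (PMAIP1) occupy the guardians or activate the pore formers. Downstream, XIAP binds and inhibits caspases, and survivin (BIRC5), of the same inhibitor family, also serves the chromosomal passenger complex in mitosis. Histones H3.1 and H3.2 are placed mainly during DNA replication, and H3.3 throughout the cell cycle, typically where nucleosomes are replaced, as at active promoters.

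The 250 bases before the RefSeq start are shown for the 5 members in which this stretch overlapped the region nearest the start. The occupancy values below were measured over these stretches, in full for 4 members and over 175 of the 250 bases for BAX. At BAX the bases nearest the start lay outside the region. The sequences are from RefSeq (GRCh38.p14), printed 5′ to 3′ on the gene's strand. XIAP lies at chrX:123859564-123859813 (+), BCL2L1 at chr20:31723964-31724213 (-), BBC3 at chr19:47232668-47232917 (-), BAX at chr19:48954625-48954874 (+) and BAK1 at chr6:33580277-33580526 (-). Capitals mark matches on either strand of 5 short motifs. The GC box was searched as GGGCGG, the box bound by NF-Y as CCAAT, the TATA box as TATAAA, the cell cycle homology region as TTTGAA, and the E-box as CACGTG. No matches overlapped one another. The RefSeq start of BBC3 lies 330 bases from the start used in the deposited distances, and those of the other 4 within 24 bases.
XIAP: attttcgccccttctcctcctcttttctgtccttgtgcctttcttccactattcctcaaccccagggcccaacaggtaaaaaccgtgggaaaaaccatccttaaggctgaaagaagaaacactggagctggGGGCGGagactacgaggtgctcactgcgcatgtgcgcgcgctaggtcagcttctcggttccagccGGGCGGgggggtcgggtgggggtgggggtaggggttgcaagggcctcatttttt
BCL2L1: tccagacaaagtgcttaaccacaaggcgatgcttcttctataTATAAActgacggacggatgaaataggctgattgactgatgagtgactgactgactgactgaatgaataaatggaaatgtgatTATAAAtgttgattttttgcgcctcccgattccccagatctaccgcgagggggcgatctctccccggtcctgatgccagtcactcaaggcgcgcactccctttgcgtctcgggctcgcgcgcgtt
BBC3: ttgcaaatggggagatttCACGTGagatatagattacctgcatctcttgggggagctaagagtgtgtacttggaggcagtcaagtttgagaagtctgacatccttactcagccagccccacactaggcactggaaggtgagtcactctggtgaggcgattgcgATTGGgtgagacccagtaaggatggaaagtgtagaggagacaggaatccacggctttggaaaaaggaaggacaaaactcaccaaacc
BAX: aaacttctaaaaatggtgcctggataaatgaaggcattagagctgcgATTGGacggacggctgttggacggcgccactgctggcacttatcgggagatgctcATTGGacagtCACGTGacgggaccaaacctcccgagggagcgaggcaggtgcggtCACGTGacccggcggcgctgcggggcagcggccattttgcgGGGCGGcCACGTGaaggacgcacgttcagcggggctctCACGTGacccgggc
BAK1: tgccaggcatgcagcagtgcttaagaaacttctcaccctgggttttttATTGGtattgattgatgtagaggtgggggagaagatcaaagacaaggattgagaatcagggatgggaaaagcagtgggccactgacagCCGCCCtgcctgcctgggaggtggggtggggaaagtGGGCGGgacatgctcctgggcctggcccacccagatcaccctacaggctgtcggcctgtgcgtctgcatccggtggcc

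RefSeq promoter windows were found for 8 members, not for MCL1 and BIRC5. The BAX stretch held 4 CACGTG matches, a number reached in 4 of 10256 promoters of genes with a start region (0.039%), whereas 8.69% held at least 1. It also held 2 CCAAT matches and 1 GGGCGG. BCL2L1 held 2 TATAAA matches, a motif found in 5.37% of promoters, and no GGGCGG, which 64.1% held. GGGCGG matched 4 times in PMAIP1, 3 times in BCL2L11, 2 times each in XIAP and BAK1, and in none of BCL2, BBC3 and BCL2L1. CCAAT was in BAX, BCL2L11, BAK1 and BBC3 (34.0% of promoters), and TTTGAA, in 8.30% of promoters, was in no member. CpG dinucleotides ranged from 4 in BBC3, 5 in BAK1 and 12 in XIAP to 34 in BCL2L11 and 36 in PMAIP1, against a median of 20 over all promoters. These matches describe letters and not bound sites. The BBC3 and BCL2L11 stretches lie downstream of the starts used in the deposited distances, which are 330 and 296 bases from the RefSeq starts.

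A member's promoter value was that of its start region, the region in the authors' promoter window (7500 bases upstream to 2500 downstream of the start) whose edge lay nearest the start. Values are mean pileup heights, the average number of tags stacked over a region. Folds are plain ratios, H3.3 height divided by H3.1/H3.2 height, with exact conditional 95% intervals on estimated tags. The intervals cover counting error only. With 1 library per antibody no difference has a replicate check, and no p-value is given. The scaling between the libraries is not stated, so which variant is the higher holds relative to it. Over all 17529 genes with a start region the median H3.3 height was 10.2 and the median H3.1/H3.2 height 5.68, with a median fold of 2.02.

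Among the survival genes, XIAP had the widest gap between the variants. Its start region (chromosome X, 123859200 to 123861199), which covered the start and held a CpG island, had a mean H3.3 height of 10.9 (95% Poisson interval 8.81 to 13.3) and an H3.1/H3.2 height of 1.54 (0.858 to 2.63), a 7.09-fold excess of H3.3 (3.94 to 13.1). The H3.3 height was near the middle of all genes (percentile 57.6), while the H3.1/H3.2 height was at percentile 1.06. At MCL1, the short-lived guardian of BAK, the start region (chromosome 1, 150576600 to 150579199) had an H3.1/H3.2 height of 5.10 and an H3.3 height of 12.8, or 2.51-fold (1.86 to 3.47), and began 539.5 bases inside the gene. At BCL2, the founding member of the family, the only region lay 1021.5 bases upstream of the start (chromosome 18, 63320800 to 63321399), with heights of 2.78 and 7.95. Its fold of 2.86 rested on an estimated 7.43 and 21.3 tags and its interval ran from 1.23 to 8.35. BCL2L1 had 10.3 and 15.7, or 1.53-fold (1.46 to 1.60), in a region that ran through the whole gene and is described further on. Pairs of heights are given here and from now on with H3.1/H3.2 first. BIRC5 stood opposite to the other survival genes, with an H3.3 height of 7.22 below an H3.1/H3.2 height of 12.3 over its start (chromosome 17, 78213400 to 78218199), or 0.588-fold (0.480 to 0.721). Its H3.1/H3.2 height was at percentile 94.7 of all start regions and its H3.3 height at percentile 17.4.

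Among the start regions of the death genes, those at the genes of the BH3-only proteins NOXA and PUMA had the largest H3.3 excess. The next region upstream had 5.92-fold at BAX, 3.86-fold at BCL2L11, 3.75-fold at BBC3 and 2.52-fold at BAK1. The order therefore holds for start regions only. PMAIP1 (NOXA) had heights of 1.71 and 7.31, or 4.27-fold (1.87 to 10.3), in a region without a CpG island 561.5 bases upstream of the start (chromosome 18, 59898400 to 59899399). Its H3.1/H3.2 height was at percentile 1.73 and its H3.3 height at percentile 18.1. BBC3 (PUMA), whose start region covered the start (chromosome 19, 47231400 to 47233599), had 3.36 and 12.6, or 3.75-fold (2.54 to 5.70). The third BH3-only gene, BCL2L11 (BIM), had high heights of both, 10.1 and 15.5 (percentiles 86.6 and 89.3), and 1.53-fold (1.11 to 2.15; chromosome 2, 111121000 to 111122399). Of the pore former genes, BAX had 4.04 and 6.80 in a region ending 61.5 bases before its start (chromosome 19, 48954000 to 48954799), or 1.68-fold, with an interval from 0.852 to 3.58 that included 1. BAK1 had 10.9 and 10.1 over its start (chromosome 6, 33573800 to 33581999), or 0.934-fold (0.807 to 1.08), also including 1.

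**Figure D1:**
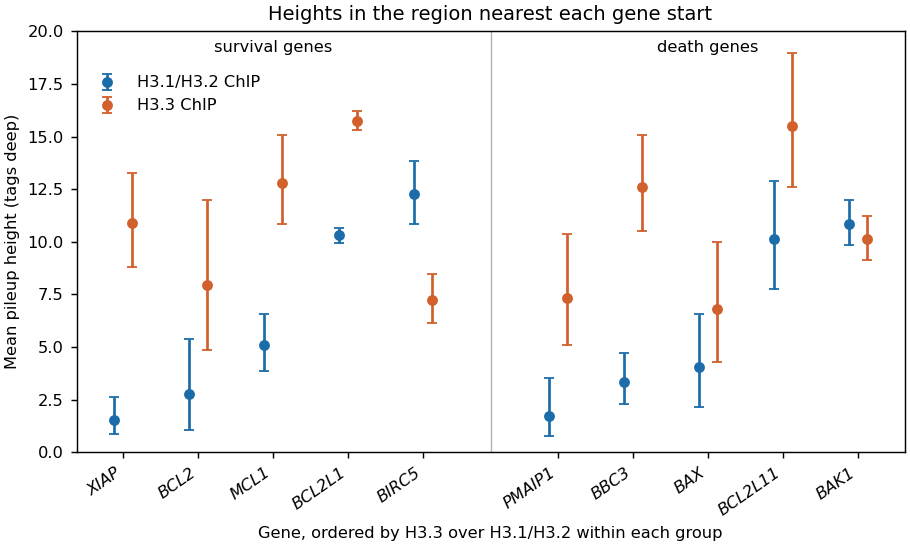
Mean pileup height (y axis, tags deep) of the H3.1/H3.2 and the H3.3 library in the region nearest each gene's start, survival genes on the left and death genes on the right. Bars are exact Poisson 95% intervals on estimated tags. H3.3 ran from 6.80 to 15.7 and H3.1/H3.2 from 1.54 to 12.3, and BIRC5 and BAK1 had the higher point in H3.1/H3.2.

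The members thus differed more in H3.1/H3.2 than in H3.3. Across the 10 start regions the highest H3.1/H3.2 height was 7.99 times the lowest, and the highest H3.3 height 2.32 times the lowest. On the log2(height + 1) scale the H3.1/H3.2 heights had an SD over members of 0.91 and the H3.3 heights one of 0.42. Over all genes the SDs were 0.65 and 0.55. Of the 10 regions, 7 were called in H3.3 only (57.6% of all genes). There H3.3 had to be high enough for a call, and H3.1/H3.2 did not. The lowest H3.1/H3.2 heights, at XIAP, PMAIP1 and BCL2, rested on an estimated 13.7, 7.64 and 7.43 tags. The difference in spread therefore holds for regions picked in this way.

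As a group the members sat where gene starts in general sit. Their start region was 2-fold or more to H3.3 in 5 of 10, against 50.5% of all genes, and 2-fold or more to H3.1/H3.2 in 0 of 10, against 6.25%. The interval of the fold lay above 1 in 7 (67.5% of all genes) and below 1 in BIRC5 alone (15.2%). The region was called in H3.3 only at 7 (57.6%), in both ChIPs at BCL2L1, BIRC5 and BAK1 (31.3%), and in H3.1/H3.2 only at none (11.1%). The start itself lay inside the region at 5 members, against 60.4% of genes. None of these shares is far from its background.

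Survival and death genes overlapped over most of their range at the start. The median log2 ratio, with 1 added to both heights, was 1.18 for the survival genes (range -0.69 to 2.23) and 0.63 for the death genes (-0.09 to 1.64), against 0.89 over all genes. The order of the medians depended on which promoter regions were read. With the median over all promoter regions of a gene the values were 0.97 and 1.12. Over single promoter window regions, 7 of 10 at survival genes and 9 of 13 at death genes were 2-fold or more to H3.3 (45.8% of all such regions). The opposite held for 1 region at survival genes, in XIAP, and 0 at death genes (10.4%). In the order of folds from XIAP down to PMAIP1, BBC3, BCL2, MCL1, BAX, BCL2L11, BCL2L1, BAK1 and BIRC5, 7 of the 9 neighbouring pairs could not be told apart within counting error. The other 2 were BCL2L1 over BAK1, with a ratio of folds of 1.63 (Wald 95% interval 1.41 to 1.90), and BAK1 over BIRC5, at 1.59 (1.24 to 2.03).

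**Figure D2:**
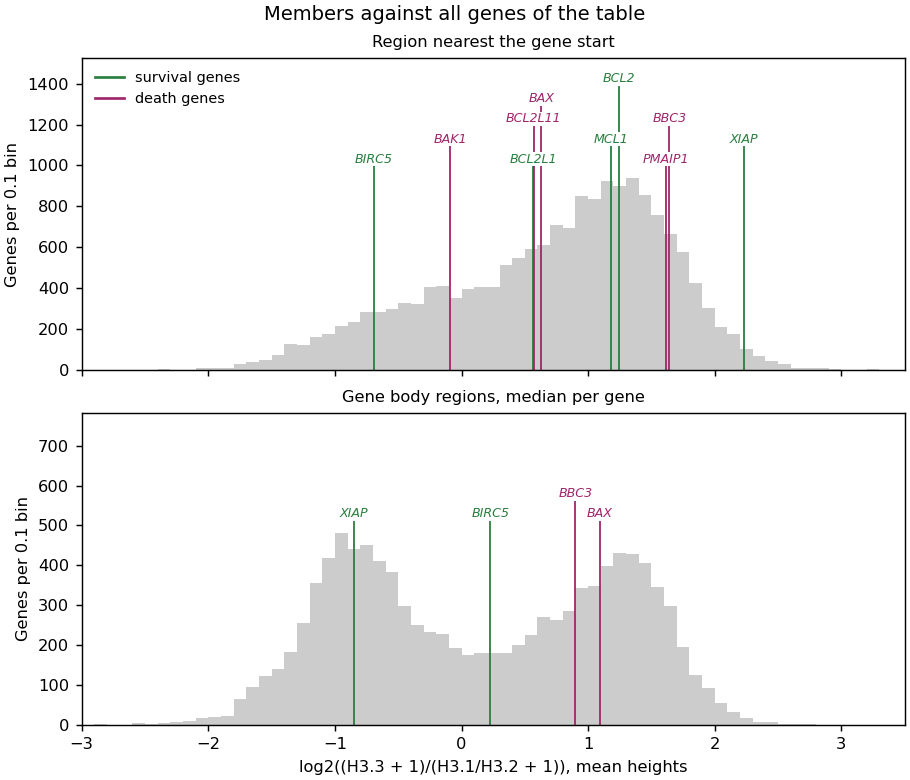
Number of genes (y axis) by log2 ratio, H3.3 mean height to H3.1/H3.2 mean height, with 1 added to each (x axis), for the start region of 17529 genes (top) and the median over gene body regions of 10592 genes (bottom), with lines at the members. At the start the members spread from -0.69 at BIRC5 to 2.23 at XIAP, and in gene bodies XIAP, at -0.85, was alone among the 4 measured members in lying below 0.

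Moving upstream from the start region, the balance tipped to H3.3 at most members with a further region in the promoter window. A next region upstream existed at 6 members and had the higher log2 ratio at 5, against 43% of 7529 genes. At BIRC5 the upstream region, ending 1797.5 bases before the start, had heights of 3.44 and 9.40. Its fold of 2.73 was 4.65 times that of the start region (Wald 95% interval 2.82 to 7.66). At BAX the upstream region had 1.19 and 7.03, or 5.92-fold (2.39 to 20.4), 3.52 times the start region (1.11 to 11.1). The ratio was 2.70 (2.19 to 3.32) at BAK1, 2.52 (1.30 to 4.91) at BCL2L11 and 1.43 (0.934 to 2.19) at BCL2L1. BBC3 did not share this step, with a ratio of 0.998 (0.485 to 2.05). The H3.1/H3.2 height was lower in the upstream region at 6 of 6 members (55.1% of genes), and the H3.3 height was lower at 3 of 6 (65.8% of genes). This comparison was chosen after the values were seen. The shares over genes were not matched on start fold or on call. The 5 members with the higher ratio upstream had start folds from 0.588 to 1.68, below the median of 2.02 over all genes. BBC3 had 3.75. All 6 upstream regions were called in H3.3 only (45.7% of all regions). How far the step follows from low start folds or from the calls was not tested.

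**Figure D3:**
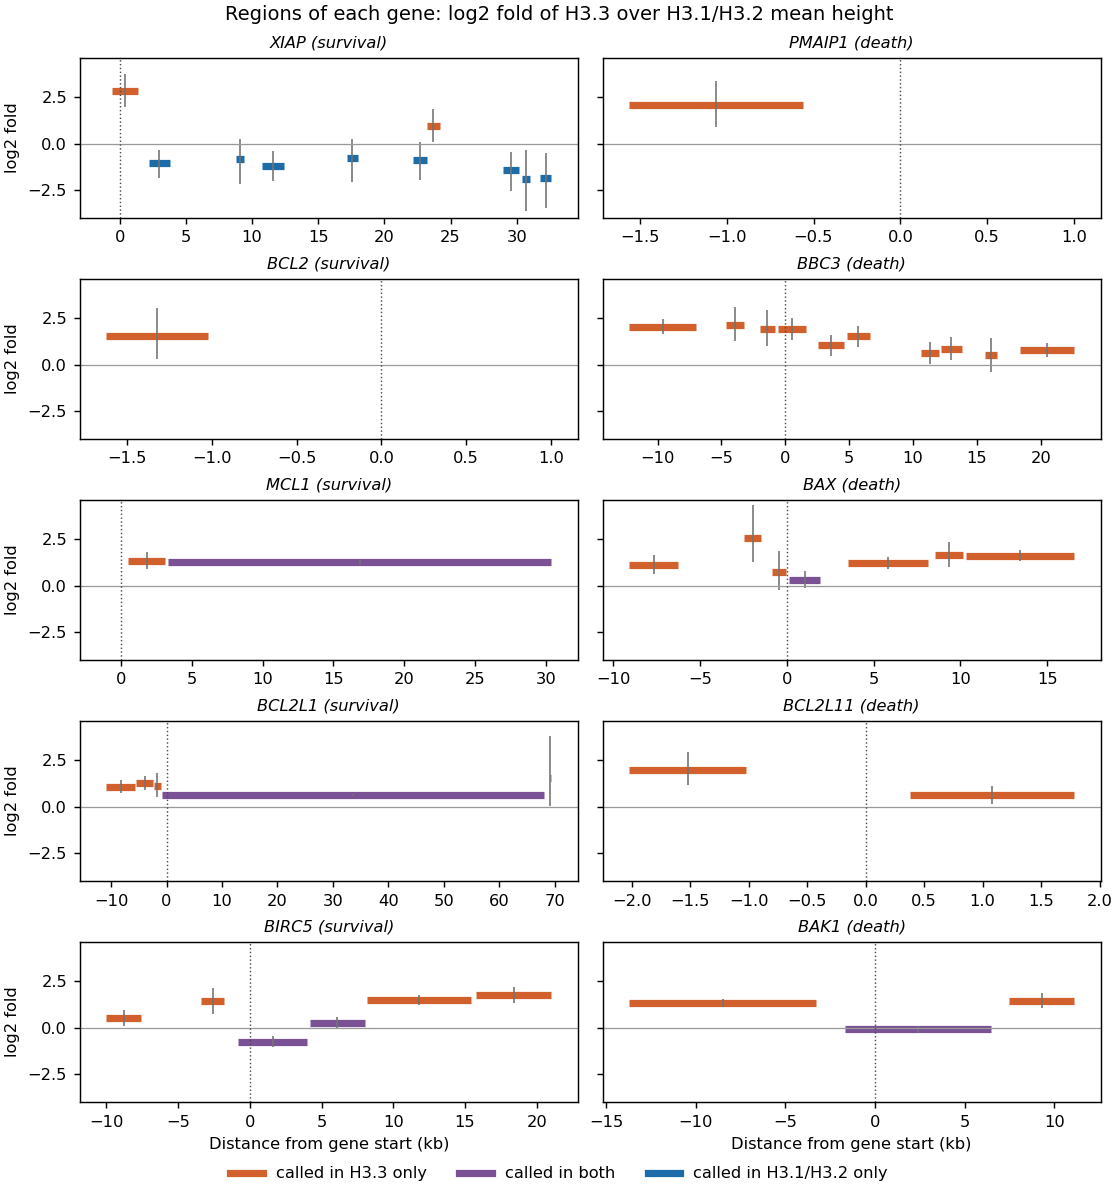
Log2 fold (H3.3 mean height divided by that in H3.1/H3.2) (y axis) of every region against distance from the gene start in kb (x axis), for the survival genes (left) and death genes (right). Horizontal bars span the regions, vertical lines are exact conditional 95% intervals, and the 199-base region downstream of BCL2L1 is too short to show as a bar. XIAP has 8 bars below 0 inside the gene, and BIRC5 and BAK1 have their lowest bar over the start.

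Around BBC3 H3.3 was the higher in every region. The 10 regions assigned to it, the outermost with their near edges 7003.5 bases upstream and 18397.5 bases downstream of the start, were all called in H3.3 only, as were 45.7% of all regions. Their folds ran from 1.43 to 4.45, and the interval lay above 1 in 9. The 4 promoter window regions lay between 3.75-fold and 4.45-fold, the 3 gene body regions at 2.04-fold (1.40 to 2.96), 2.85-fold (1.96 to 4.21) and 1.54-fold (1.04 to 2.28), and the 3 downstream of the gene between 1.43-fold and 1.80-fold. H3.1/H3.2 heights went from 2.22 to 3.36 in the promoter window and from 4.86 to 7.21 in the body. Of these, 8 were also assigned to the microRNA genes MIR3190 and MIR3191, so they are not measurements of BBC3 alone. At BAX, 6 of 7 regions were called in H3.3 only (45.7% of all regions). The other, centred 1039 bases inside the gene, was called in both, with heights of 8.86 and 11.1 and a fold of 1.25 (0.907 to 1.74). Further inside and past the gene, towards FTL (ferritin light chain) and GYS1 (muscle glycogen synthase), folds were 2.34 (1.86 to 2.95), 3.15 (1.99 to 5.17) and 3.06 (2.52 to 3.74).

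Inside genes the survival gene XIAP stood opposite to the death genes BBC3 and BAX. XIAP had 10 regions, all assigned to it alone. From the start region at 7.09-fold the balance turned within the next one, centred 2987 bases into the gene, where the H3.3 height of 3.42 was below the H3.1/H3.2 height of 7.20 (0.475-fold, 0.277 to 0.779). The 8 gene body regions beyond it, centred from 9087 to 32187 bases into a gene of 54265 bases, had H3.1/H3.2 heights from 4.07 to 6.95 and H3.3 heights from 1.65 to 7.84. Of these 8, 7 were called in H3.1/H3.2 only (50.6% of all gene body regions) and the interval of the fold lay below 1 in 4 (43.8%). The lowest were 0.267-fold (0.0806 to 0.776), centred 30687 bases into the gene, and 0.271-fold (0.0905 to 0.694), centred at 32187 bases. The exception, centred 23687 bases into the gene, was called in H3.3 only, with heights of 4.07 and 7.84 (1.93-fold, 1.07 to 3.65). It directly adjoined a region of the opposite call, whose heights were 5.81 and 3.13. XIAP's start log2 ratio exceeded its gene body median by 3.08, a gap reached or passed by 119 of 8111 genes with both values (1.47%) and by 40 of 2808 genes with at least 5 gene body regions (1.42%). The median gap over the 8111 genes was 0.49. XIAP's gene body median was at percentile 22.9 of genes with a gene body region. Genes on chromosome X as a whole had a median log2 ratio of 1.03 at 331 starts and -0.70 over 654 gene body regions.

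**Figure D4:**
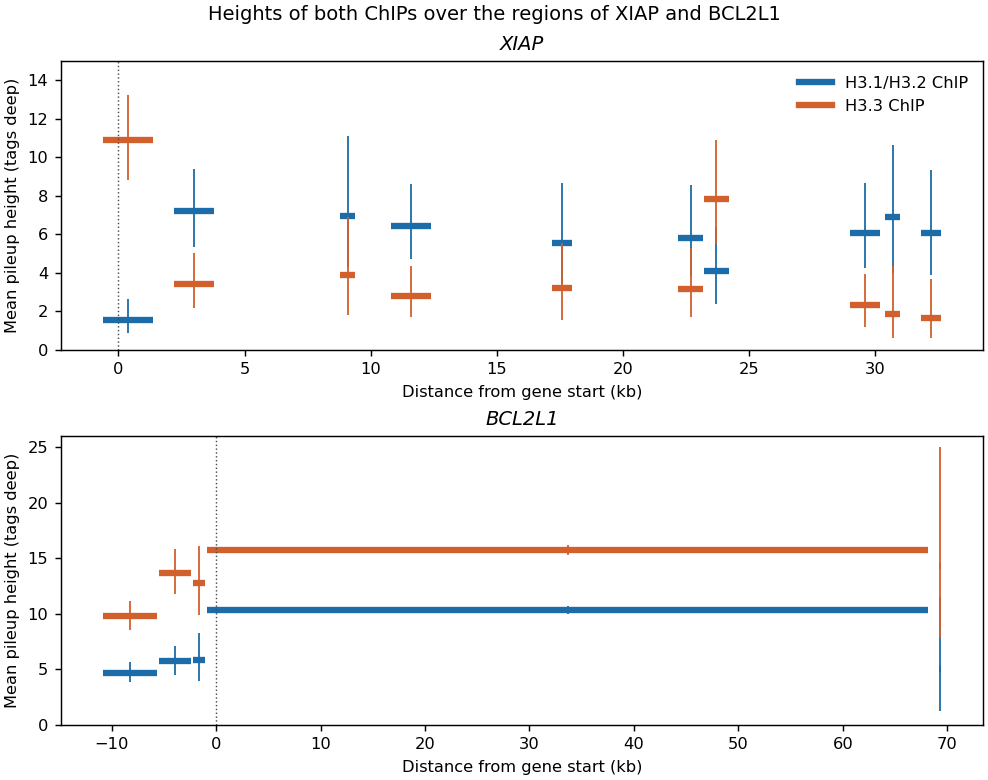
Mean pileup height of both ChIPs (y axis, tags deep) over the regions of XIAP (top) and BCL2L1 (bottom) against distance from the gene start in kb (x axis). Horizontal bars span the regions and vertical lines are exact Poisson 95% intervals. In XIAP the H3.3 bar is the higher at the start (10.9 against 1.54) and the lower in 8 of the other 9 regions, and in BCL2L1 the H3.3 bar is the higher throughout (15.7 against 10.3 in the long region).

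Of the remaining members, BIRC5, BAX and BBC3 also had gene body regions. In total 9 lay at survival genes, 8 of them in XIAP, and 4 at death genes. The death gene regions were all called in H3.3 only (34.2% of all 47220 gene body regions), 3 of 4 were 2-fold or more to H3.3 (24.5%), and the interval lay above 1 in 4 of 4 (32.4%). The survival gene regions were called in H3.1/H3.2 only in 7 of 9 (50.6%), were 2-fold or more to H3.1/H3.2 in 4 (29.6%), and had an interval below 1 in 4 (43.8%). Without XIAP the survival genes had a single gene body region, in BIRC5, with heights of 9.79 and 11.6 and a fold of 1.19 (0.960 to 1.47). On the survival side the contrast thus rests on 1 gene. On the death side it rests on 3 regions in BBC3 and 1 in BAX, the latter also assigned to FTL and GYS1. BCL2L11, BAK1 and PMAIP1 had no gene body region. The only region marked in gene at BAK1, in its promoter window, was at 0.934-fold. Gene by gene the median gene body log2 ratio was -0.85 in XIAP, 0.23 in BIRC5, 0.90 in BBC3 and 1.09 in BAX, against 0.11 over 10592 genes. Taking every region that the authors marked as in gene, promoter window included, 2 of 14 at survival genes and 4 of 8 at death genes were 2-fold or more to H3.3 (28.5% of all such regions). The opposite held for 5 of 14, all in XIAP, and 0 of 8 (25.6%).

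BIRC5 showed the reverse order of XIAP along the gene. From 0.588-fold over the start, folds were 1.19 in the body, 2.76 (2.29 to 3.33) in the region reaching past the gene's end, and 3.36 (2.53 to 4.53) further downstream, in regions also assigned to TMEM235. H3.1/H3.2 heights over the same 4 regions were 12.3, 9.79, 4.81 and 2.73, and H3.3 heights 7.22, 11.6, 13.3 and 9.16. The start minus body log2 difference of -0.92 was at percentile 5.54 of genes with both values. It shrank to -0.10 with peak in place of mean heights and turned to 0.041 when the upstream promoter region was averaged in.

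The region at BCL2L1 was the longest of all 67965 regions analysed. It spanned 68999 bases (chromosome 20, 31655800 to 31724799), was called in both ChIPs, and held 100% of the 59512 bases of BCL2L1, 836 bases upstream of it and 8652 downstream. It was also assigned to LOC105372589 and to TPX2, a spindle assembly factor gene. Its mean heights of 10.3 (9.96 to 10.7) and 15.7 (15.3 to 16.2) came from an estimated 3177 and 4850 tags, and its highest points were 30 and 47. The start and the body of BCL2L1 are therefore 1 measurement, and the gene gives no gene body value apart from its promoter. Among 1528 regions of at least 10000 bases called in both ChIPs, its fold of 1.53 was at percentile 74.1, its H3.3 height at 79.8 and its H3.1/H3.2 height at 44.3. Within 1000000 bases on either side lay 95 regions, with median heights of 8.28 and 9.16. The fourth longest region, 58799 bases at HM13, a signal peptide peptidase gene (chromosome 20, 31514400 to 31573199), was among them, at 1.10-fold (1.05 to 1.15). Upstream of BCL2L1, 3 regions were called in H3.3 only, at 2.19-fold (1.41 to 3.47), 2.39-fold (1.83 to 3.19) and 2.10-fold (1.66 to 2.67). MCL1 was also overlapped by a long region at its 3′ end. It spanned 26999 bases (chromosome 1, 150549400 to 150576399), was called in both and was assigned to 5 other genes, including ADAMTSL4, with heights of 6.49 and 15.4 (2.37-fold, 2.17 to 2.58). It was the 111th longest region.

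At the other extreme, some members carried hardly any region. BCL2 spans 196745 bases and PMAIP1 4310 bases in RefSeq, and no region overlapped either gene. Among 795 genes of 150 to 250 kb assigned at least 1 region, 4.78% had no overlapping region and the median had 4. BCL2L11 had 2.95% of its 47532 bases inside regions and XIAP 19.7%, against a median of 19.1% over 17809 genes. BBC3 had 55.3%, BAX 75.1%, BAK1 87.1%, MCL1 87.9%, BIRC5 96.5% and BCL2L1 100%. Absence of a region means that neither ChIP was called there, and heights outside regions are not in the table.

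Of the 47 member regions, 34 were also assigned to another gene. The 13 that were not comprised the 10 regions of XIAP and single regions of PMAIP1, BAK1 and BBC3. Of all 67965 regions analysed, gene-free ones included, 36810 were assigned to exactly 1 gene. Neighbours that shared a region with a member numbered 20, among them AFMID at BIRC5, ACOXL at BCL2L11, KDSR at BCL2, DHDH and FTL at BAX, SAE1 at BBC3 and COX4I2 at BCL2L1.

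The wider apoptosis pathway was read through 43 further genes, of which 35 had a start region. Of these, 19 were 2-fold or more to H3.3 (50.5% of all genes) and 0 were 2-fold or more to H3.1/H3.2 (6.25%), the interval of the fold lay above 1 in 24 (67.5%) and below 1 in 5 (15.2%), and the median log2 ratio was 0.94 against 0.89. Each share was near its background. Among the pro-apoptotic BCL2 relatives the interval lay above 1 in 6 of 6 (67.5% of all genes), with folds from 1.57 at BAD to 4.39 (2.79 to 6.88) at BNIP3. BNIP3 and BNIP3L, BH3-like proteins known for removal of mitochondria, were among the highest 4 of the list, with 4.12-fold (2.39 to 7.01) at BNIP3L. The highest was CFLAR, which encodes the caspase-8 inhibitor FLIP, with heights of 2.33 and 17.9 (7.67-fold, 5.49 to 10.7, percentile 99.6 of the log2 ratio). BIRC2, an inhibitor of apoptosis and ubiquitin ligase, followed with 3.49 and 19.1 (5.48-fold, 3.82 to 8.22), in a region also assigned to BIRC3.

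Mitochondrial factors and caspases made up 8 and 7 of the 35 genes and held 3 of the 5 intervals below 1. The interval lay above 1 in 4 of 8 mitochondrial and apoptosome factors (67.5% of all genes) and below 1 in 2 (15.2%). These were CYCS, encoding cytochrome c, at 0.602-fold (0.435 to 0.826), and VDAC2, an outer membrane channel that binds BAK, at 0.809-fold (0.745 to 0.879). The interval was above 1 in 3 of 7 genes of caspases and their DNase (67.5% of all genes) and below 1 in CASP2 alone (15.2%). CASP2 was at 0.541-fold (0.323 to 0.891), in a region 1216.5 bases from its start. The other genes with an interval below 1 were BAG1 and BCL2L2. BAG1, a chaperone partner of BCL2, had 11.8 and 6.45 (0.545-fold, 0.446 to 0.661). BCL2L2, which encodes the guardian BCL-w, had 12.7 and 7.24 (0.572-fold, 0.477 to 0.685). All 5 regions with an interval below 1 were also assigned to other genes, as were most of the 35 start regions. The genes sharing the 5 regions included CHMP5 at BAG1, PABPN1 at BCL2L2, C7orf31 at CYCS, COMTD1 at VDAC2 and TMEM139 at CASP2. The interval lay above 1 in 6 of 7 death receptor pathway genes and in 4 of 5 genes of the IAP family and its regulators (67.5% of all genes). No region was assigned to BCL2A1, HRK, FASLG and TNFSF10, and regions of BMF, CASP6, CASP10 and FAS lay outside the promoter window.

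**Figure D5:**
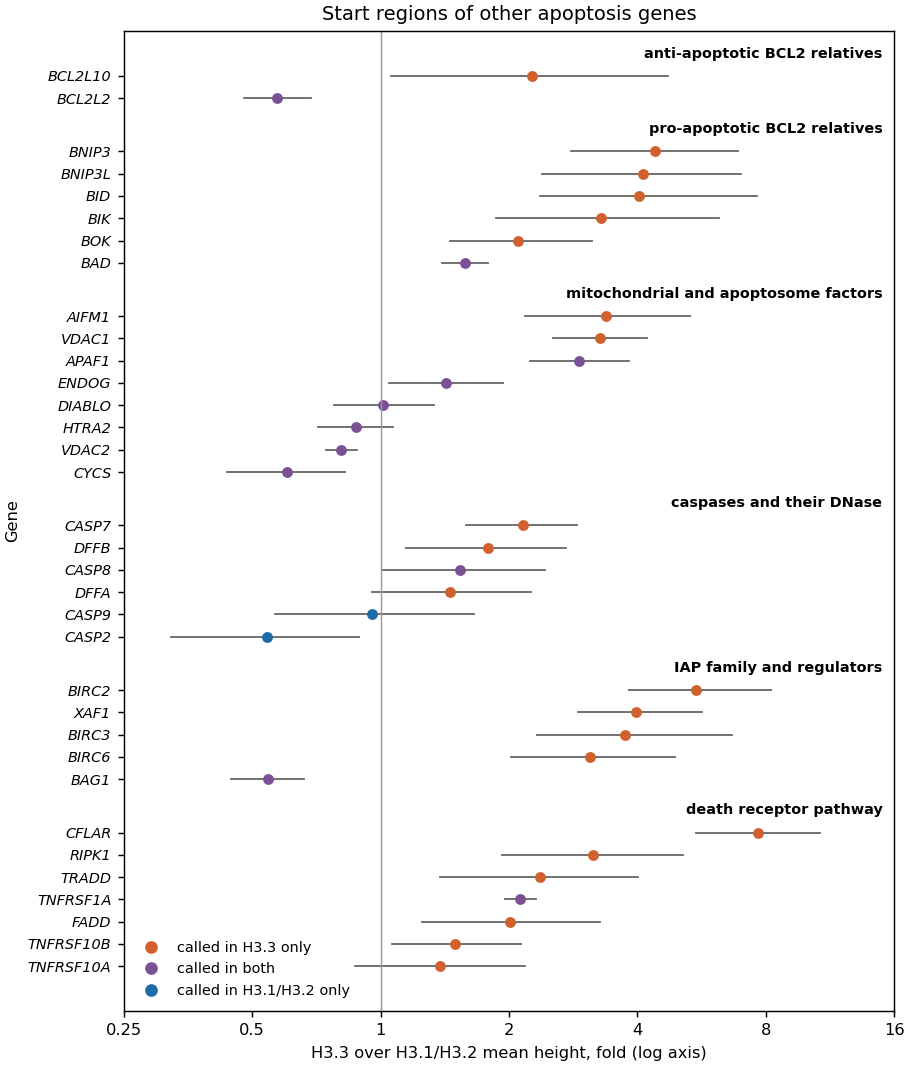
Fold (H3.3 mean height divided by that in H3.1/H3.2) (x axis, log scale) in the start region of 34 of the 35 other apoptosis genes (y axis), grouped by role. Points are coloured by the ChIPs in which the region was called and lines are exact conditional 95% intervals. The folds run from 0.541 at CASP2 to 7.67 at CFLAR, and the pro-apoptotic BCL2 relatives all lie above 1.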

How the data were processed

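One table of merged regions was used, from 1 H3.1/H3.2 and 1 H3.3 ChIP library sequenced as 75 nt single-end reads, per the labels' protocols. The submitters' processing notes name BWA, SICER and hg38, without the settings. The deposited values are a pileup signal, per the file headers: its average and its maximum in a region, with a mark for each ChIP called. The deposited log2 ratio by the authors equalled that of the mean heights to within 8.9e-16. The highest heights were whole numbers in 100% of regions.

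Regions on chromosomes 1 to 22 and X were used (67965), holding an estimated 5897938 H3.1/H3.2 and 7332517 H3.3 tags, medians of 45.03 and 56.1 per region. Tag numbers were estimated from height and length with 224 bases covered per tag, which gave the authors' deposited tag signal in 100% of regions to a relative tolerance of 1e-06. Scaling of the heights before deposit, if any, carries over to tags and intervals. Intervals cover counting error only. Reads had no molecular identifiers, so tags copied from the same fragment could not be told apart. Log2 ratios have a pseudocount of 1, which understates low regions, and folds have none. The promoter window, applied to the deposited distances, matched the promoter mark of the authors in 100% of 36810 regions assigned to 1 gene. Gene body regions were those marked in gene outside that window. That mark equalled a midpoint inside the RefSeq gene in 97.6% of 90545 gene and region pairs. Starts, ends and lengths are printed as deposited.

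The members and gene lists were chosen with earlier results of these data known. All members were named, and of the other apoptosis genes the 4 highest and 4 lowest folds at the start with at least 20 tags, any with an interval below 1 and genes sharing a region with a member. BAD, and the genes without a promoter region, were named after their values were seen. Alternatives were pseudocounts of 0.1 and 10, peak heights, centring on regions called in both, all promoter regions, regions of at least 1000 bases, regions of height 5 or more, and unshared regions. Of the other apoptosis genes, 1 is counted but not reported here by name. Intervals were tested on simulated Poisson counts, which is the case they assume. That test cannot show how they hold for scaled heights or copied tags. Python 3.11.15, NumPy 2.4.6, SciPy 1.17.1 and pandas 2.3.3 were used.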

Additional observations from a re-analysis of the deposited data

How the results depend on the processing

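No paired analysis was possible because each ChIP has 1 library. Of 100 recomputed values over 11 settings, 85 stayed within the interval of the main value or, for counts, within 1.5 times. For a median over members this was the counting interval of the middle gene, or the average of those of the middle 2. It is not the spread between genes. For the other apoptosis genes it was an interval of the median taken from the ranked values of 35 genes. Not all of the 100 values were free to change. Centring cancels in every start minus body difference. Reading all promoter regions cannot alter the gene body medians or the long BCL2L1 region. The filter on mean height left every value as in the main setting. The 85 therefore include values that could not move, and their share is not a measure of stability. With a pseudocount of 10 the values were 0.49 for the survival and 0.43 for the other apoptosis genes at the start, 0.49 for the death gene bodies, 1.18 for XIAP's start minus body and 0.34 for the long BCL2L1 region, and 0 members were 2-fold to H3.3. Added to heights of this size, that pseudocount shrinks every ratio. With peak heights BIRC5's start minus body was -0.10 and the BCL2L1 region 0.63. Over all promoter regions of a gene, start minus body turned to 0.041 at BIRC5 and was 1.52 at XIAP. Regions assigned to no other gene left 1 survival gene (XIAP, 2.23), 2 death genes, 3 members at 2-fold and a median of 1.45 for the other genes, and no value for the death gene bodies, the BCL2L1 region and the differences at BIRC5, BAX and BBC3. For peak heights and the promoter average the cause was not tested. With every region marked in gene, a choice made after seeing the data, the survival body median by gene turned from -0.31 to 0.17 and BIRC5's difference was -0.46, since the start regions of BCL2L1, MCL1 and BIRC5 then count as in gene. A start region chosen by midpoint, also added later, gave 6 members at 2-fold, with BCL2L1 read from a region upstream. Starts of BCL2, PMAIP1 and BAX rest on few tags and have wide intervals.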

Other observations

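The inhibitor of apoptosis genes besides XIAP were looked at after XIAP's profile had been seen. BIRC2 had a start log2 ratio of 2.16 and a median of -0.81 over 5 gene body regions, a difference of 2.98 (percentile 98.2 of genes with both values, against 98.5 for XIAP). BIRC6, a very large ubiquitin ligase of the family, had 1.45 at the start and -0.99 over 22 gene body regions, a difference of 2.44 (percentile 94.1). BAG1, which is no family member, had -0.79 and -0.64, and BIRC5 the reverse difference of -0.92.

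Gene bodies of the other apoptosis genes were also read. Over 106 gene body regions of 24 genes the median log2 ratio was -0.52, against -0.40 over all gene body regions. Of the 106, 63 were called in H3.1/H3.2 only, against 50.6% of all gene body regions. These values pool regions spread unevenly over genes, with 22 in BIRC6 alone. Medians by gene lay on both sides of 0, from -0.99 at BIRC6 to 1.80 at BMF. CASP2 had a median of -0.87 over 6 regions. BMF, a BH3-only gene with no region at its promoter, had 1.80 over 3 regions (percentile 96.8 of genes with a gene body region), and FAS, the death receptor, 1.46 in 1 region. These genes were named after their values were seen.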
